A study of Mus musculus with 6 samples.

Results

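Structural and nuclear RNAs that take a large part of the reads were followed in sorted lymphatic endothelial cells (LECs) of the dura, which form the wall of its lymphatic vessels. The group holds 7 genes of the 55401 with a row in the tables: CT010467.1, Lars2, Malat1, Neat1, Rn7sk, Rpph1 and Rmrp, and all 7 had counts in every library. They were chosen by their abundance in these same libraries, so their high levels describe the choice and were not tested. The name of the group holds only in part. Lars2 is a protein-coding gene, and Neat1 was the least abundant of the 7, ranking between 30 and 220 by counts.

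The animals were wild-type male C57BL/6J mice, which had received an AAV9 vector into the cisterna magna. The vector encoded murine VEGF-C (AAV-VEGF-C) or, as the control, a soluble Ig fusion of the VEGFR3 domains that cannot bind VEGF-C (AAV-CTRL). LECs were sorted as LYVE-1+, PDPN+, CD31+ and CD45- cells from pooled animals, so a library stands for a pool and not for a mouse. The age at the sort is not stated for these pools in the sources used here. Each group had 3 libraries, numbered by 3 experiments that both groups share, and p-values measure the spread between these pools. Total counts ranged from 6530269 to 12399498 in the control pools and from 564475 to 3261935 in AAV-VEGF-C, so depth and treatment cannot be told apart. All 8 lymphatic markers looked at (Prox1 and Flt4 among them) had counts in every library, summing to between 1360 and 2181 CPM, that is counts scaled to a common library total, in the control pools and between 698 and 2961 in AAV-VEGF-C. The 5 fibroblast markers summed to more, from 8022 to 18998 CPM and from 5198 to 9858 CPM. The 6 blood endothelial markers summed to 310, 1123 and 2657 CPM in AAV-CTRL 1, 2 and 3 and to between 406 and 711 CPM in AAV-VEGF-C. The part of other cells in the results was not tested.

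As background, the genes belong to 3 kinds of RNA. Ribosomal RNA is the bulk of the RNA of a cell, and CT010467.1 is annotated as rRNA. Rn7sk, Rpph1 and Rmrp are short RNAs made by RNA polymerase III that work inside protein complexes. 7SK, the product of Rn7sk, holds the elongation factor P-TEFb inactive. Rpph1 is the catalytic RNA of RNase P, which trims tRNA precursors, and Rmrp is the RNA of RNase MRP, which cuts precursor rRNA. Malat1 and Neat1 are long nuclear noncoding RNAs, the first of nuclear speckles and the second the scaffold of paraspeckles. Lars2 encodes the mitochondrial leucyl-tRNA synthetase, which loads leucine onto tRNA in mitochondria. Libraries made from total RNA, as here, can hold all of these RNAs, whether or not they carry a poly(A) tail. A share given here is of the counts of a library, and it does not measure the share of that RNA in the cell.

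The positions were read from GENCODE M21 on GRCm38, the build named mm10 in the submitters' processing notes. CT010467.1 lies on the minus strand at chr17:39846353-39848827, where Gm42418 (1831 shared bases, opposite strand) and AY036118 (923 shared bases, same strand) overlap it. Neither of these has a row. Over 1244 bases the M21 transcript of CT010467.1 is identical to Gm42418 read on the opposite strand. The tables carry a later version of the CT010467.1 identifier than M21, so its strand and exons there may differ. Which strand the counted model uses is not known here, and the letters printed below are those of M21. Rpph1 lies at chr14:50807449-50807767 and Rmrp at chr4:43492783-43493063, both on the minus strand. Rn7sk lies at chr9:78175303-78175633, also on the minus strand. Lars2 runs on the plus strand over chr9:123366927-123462666, with 21 exons in its longest coding transcript. Malat1 (chr19:5795690-5802672) and Neat1 (chr19:5824708-5845478) are neighbours on the minus strand, 22035 bases apart, and the longest transcript of each is a single exon. GC content rose from 42.5% in Malat1, 47.3% in Neat1 and 51.2% in Lars2 to 55.4% in CT010467.1, 58.0% in Rn7sk, 63.7% in Rmrp and 67.1% in Rpph1.

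Sequence decides which row receives a read, so stretches that these genes share with other transcripts are shown here, as GENCODE M21 transcript sequence on GRCm38. For CT010467.1, bases 117 to 366 of the M21 transcript (chr17:39847836-39848085, minus strand) are given, and the 200 capitals are also part of AY036118, which has no row. For Rn7sk, bases 1 to 300 (chr9:78175334-78175633, minus strand) are given, and the 241 capitals are identical in Gm24447, a 7SK-like row. For Rpph1, bases 3 to 301 (chr14:50807467-50807765, minus strand) are given, and the 233 capitals are identical in a transcript of Ccnb1ip1 on the same strand. For Rmrp, the full 281 bases (chr4:43492783-43493063, minus strand) are given, and the 10 capitals lie outside a nested model of 271 bases that has its own row.
CT010467.1: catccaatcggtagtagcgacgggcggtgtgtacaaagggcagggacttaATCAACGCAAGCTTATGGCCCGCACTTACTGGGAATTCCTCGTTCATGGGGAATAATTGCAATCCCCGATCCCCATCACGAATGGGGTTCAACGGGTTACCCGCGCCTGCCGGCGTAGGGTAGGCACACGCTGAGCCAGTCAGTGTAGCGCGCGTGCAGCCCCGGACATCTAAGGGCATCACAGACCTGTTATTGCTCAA
Rn7sk: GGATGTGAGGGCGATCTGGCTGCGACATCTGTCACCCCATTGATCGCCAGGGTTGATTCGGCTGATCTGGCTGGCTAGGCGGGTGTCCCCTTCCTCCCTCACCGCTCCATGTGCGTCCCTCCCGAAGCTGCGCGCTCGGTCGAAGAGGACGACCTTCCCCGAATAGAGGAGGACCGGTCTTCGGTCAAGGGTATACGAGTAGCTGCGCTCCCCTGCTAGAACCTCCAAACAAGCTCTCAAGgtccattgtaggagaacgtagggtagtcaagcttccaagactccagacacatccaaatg
Rpph1: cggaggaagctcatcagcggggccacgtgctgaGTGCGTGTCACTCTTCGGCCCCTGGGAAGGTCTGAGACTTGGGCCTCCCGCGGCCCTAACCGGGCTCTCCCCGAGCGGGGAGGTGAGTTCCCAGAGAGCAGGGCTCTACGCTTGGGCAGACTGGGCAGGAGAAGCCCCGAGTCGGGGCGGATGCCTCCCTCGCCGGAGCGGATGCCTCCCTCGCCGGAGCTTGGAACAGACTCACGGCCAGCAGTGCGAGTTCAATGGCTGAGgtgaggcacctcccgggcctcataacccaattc
Rmrp: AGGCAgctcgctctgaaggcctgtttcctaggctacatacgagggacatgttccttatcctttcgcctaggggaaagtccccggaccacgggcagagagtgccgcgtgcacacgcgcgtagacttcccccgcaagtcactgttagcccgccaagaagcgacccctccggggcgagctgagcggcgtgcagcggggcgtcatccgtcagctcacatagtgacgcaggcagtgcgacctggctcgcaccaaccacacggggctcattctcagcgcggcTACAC

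These shared stretches touched the 7 genes to unequal degrees. All Rmrp counts fell on the 281-base row, and the nested row had 0 counts in every library. The Ccnb1ip1 row had at most 3 counts in a library, against 1261 to 49313 for Rpph1. Rn7sk shared at least 100 bases at 95% identity with 5 other rows, and the counts of these equalled between 14.8% and 59.5% of the Rn7sk counts. No pair of the 7 genes shared a stretch of that size. Lars2 had no such partner among the M21 transcripts. Its longest match was 72 bases at 98.6% identity between its 3′ untranslated region and Gm15564, an antisense RNA gene. Gm15564 was placed in the list of ribosomal RNA related genes, of which 7 of 13 had a row. Malat1 shared stretches with 166 genes and Neat1 with 8, and apart from Gm37376 on the opposite strand, described later, these matches were at most 152 bases long. The counts of these partner rows equalled between 28.9% and 71.6% of the Malat1 counts and between 4.59% and 23.5% of the Neat1 counts. They are counts of whole genes, and how many fell in the shared stretches was not tested.

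CT010467.1 was the most abundant row in 5 of the 6 libraries. It took 12.3%, 13.4% and 1.98% of counts in AAV-CTRL 1, 2 and 3, and 23.1%, 18.1% and 16.4% in AAV-VEGF-C 1, 2 and 3. AAV-CTRL 3, the deepest library, stood apart, with less than any other library and with CT010467.1 ranked 4. The 3 AAV-VEGF-C libraries were all above the 3 AAV-CTRL libraries, and the mean was 9.22% ± 6.30 (SD, n = 3) against 19.2% ± 3.47. The ratio of means was 2.08 with all libraries and 1.497 without AAV-CTRL 3. Counting error was small beside this spread, as the 95% Wilson interval of the lowest share ran from 1.97% to 1.98% and that of the highest from 23.0% to 23.2%. These intervals hold for counting error alone, because counted reads may include copies of one molecule.

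**Figure D1:**
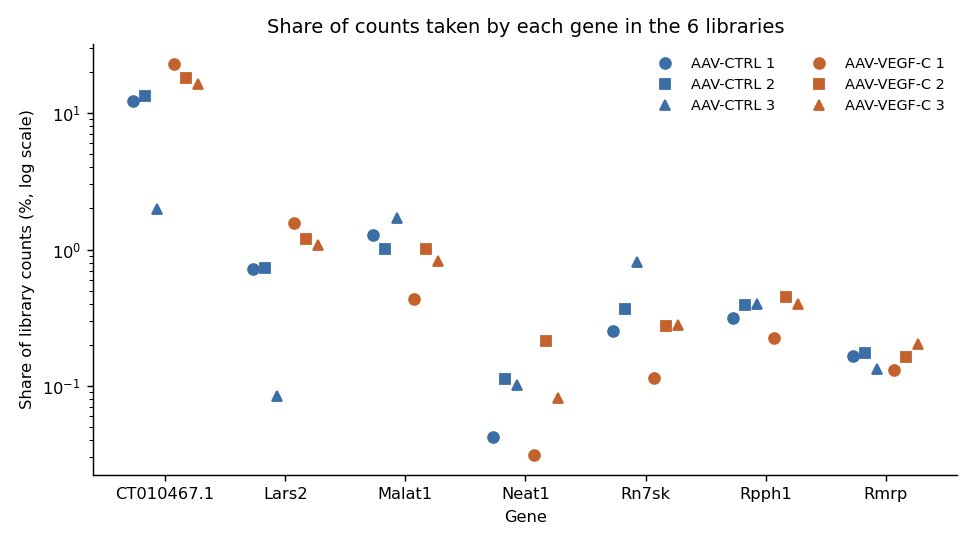
Share of library counts (%, log scale) of each of the 7 genes, with a point for each library, blue for AAV-CTRL and orange for AAV-VEGF-C, and the marker shape giving the experiment number. CT010467.1 and Lars2 are higher in all 3 AAV-VEGF-C libraries than in any AAV-CTRL library and fall to 1.98% and 0.0842% in AAV-CTRL 3, while the points of the other 5 genes overlap between groups.

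Lars2 moved together with CT010467.1. It took 0.716%, 0.728% and 0.0842% of counts in AAV-CTRL 1, 2 and 3, and 1.57%, 1.19% and 1.08% in AAV-VEGF-C 1, 2 and 3. The order of the groups was the same as for CT010467.1, with no overlap and with AAV-CTRL 3 lowest. The mean was 0.509% ± 0.368 against 1.28% ± 0.260 (SD, n = 3), a ratio of 2.51, or 1.77 without AAV-CTRL 3. CT010467.1 had 17.2, 18.4 and 23.5 counts for each Lars2 count in AAV-CTRL 1, 2 and 3, and 14.7, 15.3 and 15.2 in AAV-VEGF-C. The ratio between the genes thus spanned 1.60-fold over the libraries, while the share of CT010467.1 spanned 11.7-fold and that of Lars2 18.7-fold. Without AAV-CTRL 3 the shares spanned 1.88-fold and 2.20-fold. Their log2 CPM values correlated at r = 0.9987 over the 6 libraries, which share depth and experiment, and r was not computed without AAV-CTRL 3. Each was the gene most like the other among 9897 compared. An r of at least 0.95 was reached by 107 genes with CT010467.1 and by 119 with Lars2. The next in likeness to both were n-R5s106, a 5S rRNA row, and Junos, an antisense RNA gene. n-R5s106 took 0.00646%, 0.00745% and 1.03e-04% of counts in AAV-CTRL 1, 2 and 3 and between 0.0124% and 0.0192% in AAV-VEGF-C.

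**Figure D2:**
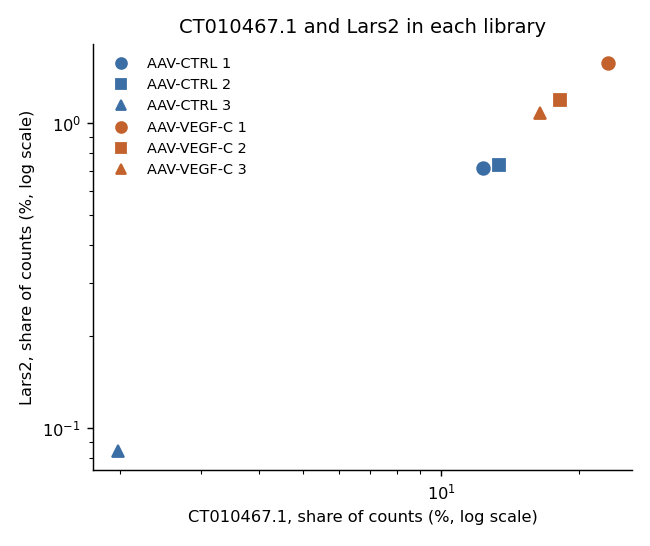
Share of counts of Lars2 against that of CT010467.1 (both in %, log scale), with a point for each of the 6 libraries. The points lie near a single line, from AAV-CTRL 3 at the lower left (1.98% and 0.0842%) to AAV-VEGF-C 1 at the upper right (23.1% and 1.57%).

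The level of Lars2 was set beside the other mitochondrial aminoacyl-tRNA synthetases, which carry out the same reaction for other amino acids. In TPM, a level scaled by gene length and by the library, Lars2 had 1084, 1201 and 174 in AAV-CTRL 1, 2 and 3. It had 957, 1216 and 1308 TPM in AAV-VEGF-C 1, 2 and 3. The highest of the other 19 synthetases was Iars2 in each AAV-CTRL library, at 9.64, 8.50 and 9.45 TPM. In AAV-VEGF-C it was Tars2 at 4.23 TPM in library 1 and Fars2 at 6.38 and 8.65 TPM in libraries 2 and 3. Lars2 was therefore between 18.4-fold and 226-fold above the highest of its class, the smallest factor being in AAV-CTRL 3. The other 19 had medians between 0.770 and 3.24 TPM in a library. AAV-CTRL 3 had the highest median of the 19 and the lowest Lars2 level. In AAV-VEGF-C against AAV-CTRL, 0 of the 19 had an adjusted p under 0.05 by edgeR's quasi-likelihood test, against 10.5% of all genes tested called higher and 0.659% lower. At an unadjusted p under 0.05 there were 2 of the 19, against 28.1% of all genes. Their median log2 fold change was 0.31. With factors from the 2000 most abundant genes 2 of the 19 were called higher and the median was 0.81, and with limma on log2(TPM + 1) it was -0.35.

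**Figure D3:**
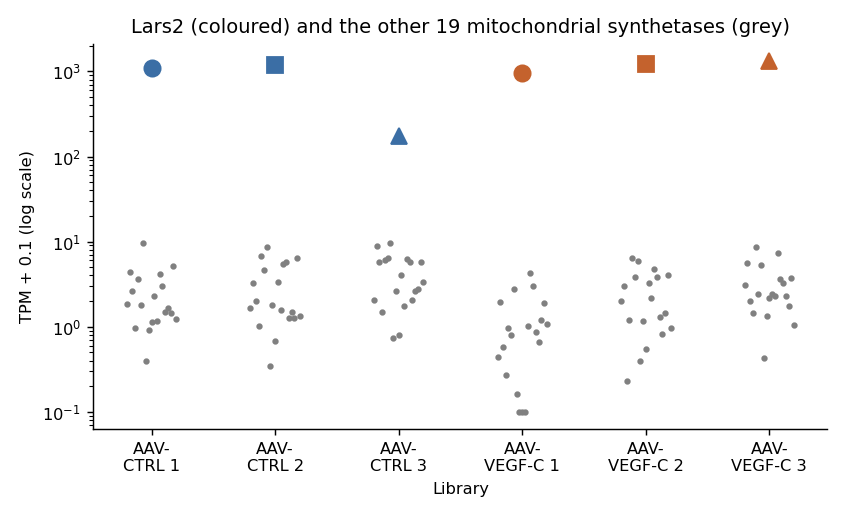
TPM + 0.1 (log scale) of Lars2 (coloured marker) and of the other 19 mitochondrial aminoacyl-tRNA synthetases (grey points) in each library. Lars2 stands above every other synthetase in all 6 libraries, and it is lowest, at 174 TPM, in AAV-CTRL 3.

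The RNAs made by RNA polymerase III differed in how much they varied. In share of counts, Rmrp was the steadiest of the 7 genes, with a 1.56-fold range over all libraries. It took 0.166%, 0.174% and 0.134% of counts in AAV-CTRL 1, 2 and 3 and 0.131%, 0.162% and 0.204% in AAV-VEGF-C. The groups overlapped, and the means were 0.158% ± 0.0212 and 0.165% ± 0.0366 (SD, n = 3). Over protein-coding counts the means were 0.223% and 0.296%, without overlap, and the part of all genes separated that way was not computed. In TPM, Rmrp ranged from 1044 to 7261. Rpph1 took 0.317%, 0.394% and 0.398% of counts in the control pools and 0.223%, 0.446% and 0.395% in AAV-VEGF-C, a 1.996-fold range. AAV-VEGF-C 1 was the lowest library, and the other 5 lay close together. The means of Rpph1 were 0.369% ± 0.0459 and 0.355% ± 0.117. Rpph1 was above Rmrp in 6 of 6 libraries, with 1.71 to 2.98 counts for each Rmrp count.

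Rn7sk varied more. It took 0.254%, 0.364% and 0.810% of counts in AAV-CTRL 1, 2 and 3, and 0.114%, 0.276% and 0.280% in AAV-VEGF-C 1, 2 and 3. The share was lower in AAV-VEGF-C than in AAV-CTRL in each of the 3 experiments, but the groups overlapped because AAV-CTRL 1 lay below AAV-VEGF-C 2 and 3. The means were 0.476% ± 0.294 and 0.223% ± 0.0945 (SD, n = 3), a ratio of 0.469, or 0.722 without AAV-CTRL 3, the library with the highest Rn7sk share. Relative to Rpph1, Rn7sk had 0.803, 0.925 and 2.04 counts for each Rpph1 count in the control pools and 0.511, 0.619 and 0.708 in AAV-VEGF-C, with no overlap. For each Rmrp count it had 1.53, 2.10 and 6.06 in the control pools and 0.873, 1.71 and 1.37 in AAV-VEGF-C, with overlap. How often ratios of other genes separate the groups was not computed. The similar rows described above had counts of their own, and their size beside Rn7sk did not overlap between the groups. The 5 similar rows had counts equal to 25.8%, 24.3% and 14.8% of the Rn7sk counts in the control pools and 59.5%, 42.2% and 34.4% in AAV-VEGF-C. Gm24447, which carries the 241 identical bases printed in capitals, held most of them. With the 5 rows added, the share was 0.567% ± 0.320 in the control pools and 0.317% ± 0.117 in AAV-VEGF-C (ratio 0.559), again with overlap. Whether these counts came from Rn7sk or from transcripts of these rows was not tested, so the level of Rn7sk is uncertain to that extent.

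The nuclear RNAs Malat1 and Neat1 did not follow each other, although they are neighbours on the chromosome. Malat1 took 1.28%, 1.001% and 1.70% of counts in AAV-CTRL 1, 2 and 3 and 0.434%, 1.02% and 0.819% in AAV-VEGF-C 1, 2 and 3. AAV-CTRL 2 and AAV-VEGF-C 2 were nearly equal, so the groups overlapped. The means were 1.33% ± 0.351 and 0.756% ± 0.296 (SD, n = 3), a ratio of 0.569. Malat1 was above Lars2 in all 3 AAV-CTRL libraries and below it in all 3 AAV-VEGF-C libraries, both in share of counts and in TPM.

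Neat1 took 0.0422%, 0.111% and 0.101% of counts in AAV-CTRL 1, 2 and 3, and 0.0310%, 0.215% and 0.0820% in AAV-VEGF-C 1, 2 and 3. Within both groups the first experiment was lowest and the second highest, and the groups overlapped widely. In AAV-VEGF-C 1 the share rested on 175 counts, with a 95% Wilson interval from 0.0267% to 0.0359%. The means were 0.0848% ± 0.0372 and 0.109% ± 0.0947 (SD, n = 3). Within each group, markers of leukocytes ran in the same order of experiments. The 5 of them (Ptprc, Cd68, C1qa, Cd79a and Cd3e) summed to 15.6, 991 and 480 CPM in AAV-CTRL 1, 2 and 3 and to 31.9, 890 and 441 CPM in AAV-VEGF-C, where Cd3e was at 0 in AAV-CTRL 1 and 3. Between the groups, these markers and Neat1 differed in opposite directions in experiments 1 and 2 and in the same direction in experiment 3. Other marker lists were not set beside Neat1, and the part of leukocytes in its level was not tested. Malat1 had between 4.73 and 30.4 counts for each Neat1 count, a 6.42-fold range. In bulk samples such as these, fewer cells of a type and less RNA per cell cannot be told apart.

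Rows on the strand opposite to these genes also separated AAV-CTRL 3 from the other libraries. Gm37376 lies within Malat1 on the opposite strand over 453 bases. It held 2.55%, 2.37% and 0.205% of the Malat1 counts in AAV-CTRL 1, 2 and 3, and 3.19%, 2.46% and 3.36% in AAV-VEGF-C. Ccdc107, a protein-coding gene that shares 164 bases with Rmrp on the opposite strand, had 15.0%, 12.6% and 2.42% of the Rmrp counts in the control pools and 25.0%, 11.9% and 16.3% in AAV-VEGF-C. In both pairs AAV-CTRL 3 was the lowest library and the other libraries of the groups overlapped. Genes of the antisense type took 1.02%, 0.800% and 0.301% of counts in the control pools and 1.59%, 1.42% and 1.32% in AAV-VEGF-C. The library kit keeps strand, but the use of strand in counting is not stated, so reads of a gene and of its opposite-strand partner may not have been told apart.

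**Figure D4:**
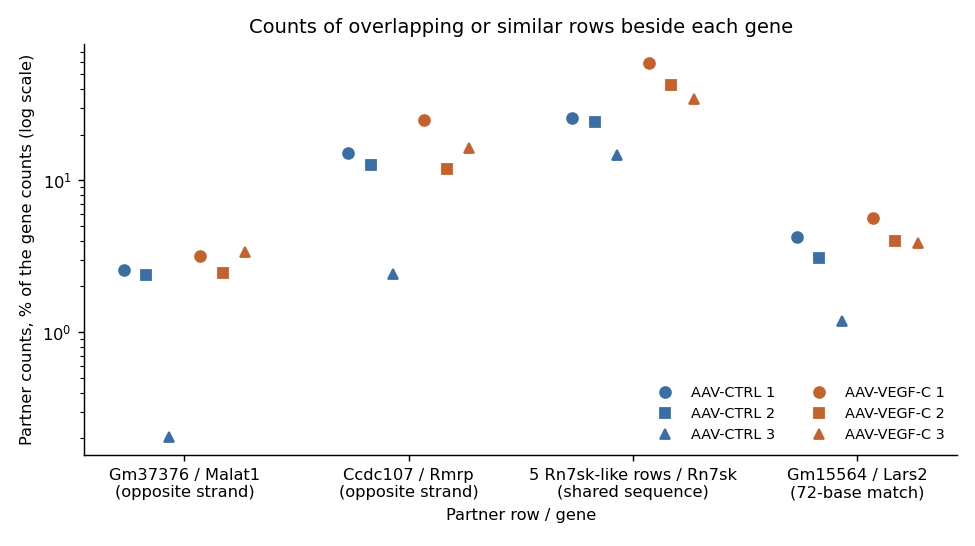
Counts of overlapping or similar rows as a percent (log scale) of the counts of the gene they lie in or resemble, with a point for each library. AAV-CTRL 3 is lowest in all 4 pairs, and the 5 Rn7sk-like rows lie at 34.4% to 59.5% of Rn7sk after AAV-VEGF-C and at 14.8% to 25.8% after AAV-CTRL.

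Added up, the 7 genes took 15.1%, 16.1% and 5.20% of counts in AAV-CTRL 1, 2 and 3 and 25.6%, 21.4% and 19.3% in AAV-VEGF-C. The groups did not overlap, and the means were 12.1% ± 6.04 and 22.1% ± 3.21 (SD, n = 3). The difference was 9.97 percentage points, or 6.495 without AAV-CTRL 3. CT010467.1 made up between 81.6% and 90.2% of this sum in 5 libraries and 38.0% in AAV-CTRL 3. Without CT010467.1 and Lars2, the other 5 took 2.42% ± 0.628 and 1.61% ± 0.608, with overlap. Of the 7, 2 genes (CT010467.1 and Lars2) had all 3 AAV-VEGF-C values above the highest control value, which held for 20.6% of the 17459 genes tested, and 0 were lower without overlap, which held for 19.1%.

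The scale changed this picture. In TPM, CT010467.1 had 35769, 43124 and 8357 in AAV-CTRL 1, 2 and 3 and 26504, 34975 and 37128 in AAV-VEGF-C, so the groups overlapped, as did those of Lars2. Rn7sk had 5281, 8792 and 36350 TPM in AAV-CTRL against 768, 3505 and 4255 in AAV-VEGF-C, with no overlap. Malat1, Rpph1 and Rmrp were likewise lower in all 3 AAV-VEGF-C libraries in TPM, at 0.260, 0.389 and 0.421 times the AAV-CTRL mean. Genes in general were lower on this scale, with a median log2 fold change of -0.72 over all genes tested on log2(TPM + 1). The share of all genes that were lower in TPM without overlap was not computed, so the fall is not particular to these RNAs on the values shown. TPM depends on the length assigned to a gene and on all other genes of the library. The length that counts and TPM together implied differed between libraries by 2.32-fold for Rn7sk, 2.10-fold for Rpph1 and 2.37-fold for Rmrp. It differed by 1.74-fold for Malat1, 1.82-fold for Neat1, 1.26-fold for Lars2 and 1.28-fold for CT010467.1. These lengths were calibrated on 39 genes in AAV-VEGF-C 1 and on 835 in AAV-CTRL 3. A fixed gene length therefore did not link the scales. Whether the groups overlapped rests on the scale for Malat1 and the short RNAs. The means of Rn7sk, Malat1 and Rpph1 were lower in AAV-VEGF-C on both scales, and that of Rmrp only in TPM. On mean TPM the order was CT010467.1 (30976), Rn7sk (9825), Rpph1 (7476), Rmrp (3891), Malat1 (1560), Lars2 (990) and Neat1 (50.7). Rn7sk owed its place to AAV-CTRL 3, and Rpph1 was above it in the other 5 libraries.

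The difference between groups was tested in a fit across all genes, edgeR's quasi-likelihood test with Benjamini-Hochberg adjustment, on counts scaled by TMM factors. None of the 7 genes passed an adjusted p of 0.05, while 10.5% of the 17459 genes tested were called higher in AAV-VEGF-C and 0.659% lower. At an unadjusted p under 0.05 there were 0 of the 7, against 28.1% of all genes. DESeq2 and limma on log2(TPM + 1) also called 0 of the 7. In these fits 2 and 4 of the 7 had an unadjusted p under 0.05, against 23.8% and 38.6% of all genes. Lars2 had the largest estimate, at 1.47 ± 0.90 on the log2 scale (± SE, adjusted p = 0.328), and that of CT010467.1 was 1.20 ± 1.42 (adjusted p = 0.627). Rn7sk stood at -0.91 ± 0.54 (adjusted p = 0.305) and Malat1 at -0.67 ± 0.58 (adjusted p = 0.497). The estimates were 0.49 ± 0.65 for Neat1, 0.20 ± 0.37 for Rmrp and 0.08 ± 0.43 for Rpph1. Without AAV-CTRL 3 the values of CT010467.1 and Lars2 were 0.57 and 0.82, and those of Rmrp and Rpph1 were -0.10 and -0.07. With the experiment as a block, since the numbers are shared by experiment, Lars2 had 1.96 ± 0.75 (adjusted p = 0.111) and the count of calls stayed at 0. The median log2 fold change was 0.20 over the 7 and 0.00 over all genes tested, but it was -0.41 over the 7234 tested genes whose mean TPM reached 5, a level that all 7 exceed. Scaling on the 2000 most abundant genes moved the median of all genes to 0.49 and that of the 7 to 0.74, and still called 0 of the 7.

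**Figure D5:**
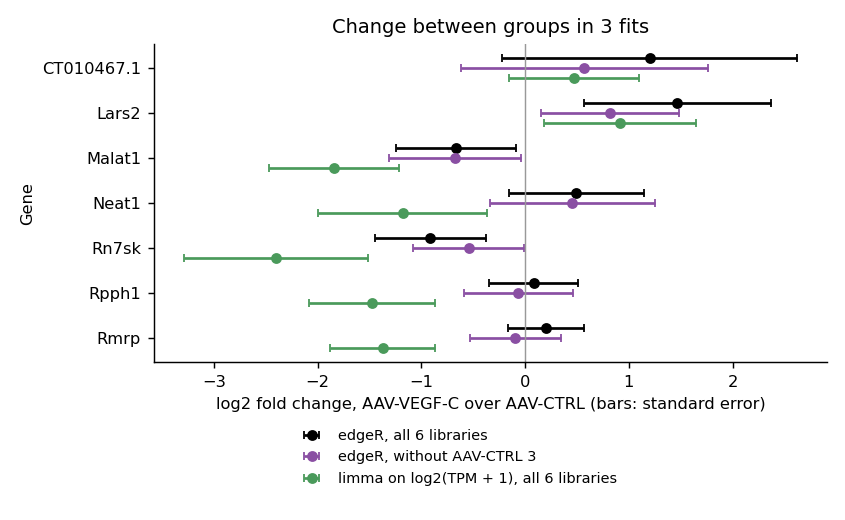
Log2 fold change of AAV-VEGF-C over AAV-CTRL for the 7 genes in 3 fits, with bars of 1 standard error. CT010467.1 and Lars2 lie above 0 in all 3 fits, Malat1 and Rn7sk below 0, and Neat1, Rpph1 and Rmrp are above 0 on counts from all libraries and below 0 on TPM.

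Genes whose proteins bind or make these RNAs, the other mitochondrial synthetases and other noncoding RNAs were examined as 9 lists. Of the 140 list genes with a row, 132 were tested. Of these 132, 2 were higher and 1 was lower at an adjusted p of 0.05, against the 10.5% and 0.659% of all genes. The 3 were Miat, 2900097C17Rik and Rprl2, all from the lists of other noncoding RNAs. Miat, a nuclear long noncoding RNA, had 5.82, 4.33 and 4.11 CPM in the control pools and 17.7, 18.1 and 20.5 CPM in the AAV-VEGF-C pools (log2 fold change 2.12 ± 0.38, adjusted p = 0.0198 by edgeR). It had between 10 and 67 counts in a library. 2900097C17Rik, another long noncoding RNA, had 262, 199 and 290 CPM in the control pools and 81.2, 93.8 and 128 CPM in the AAV-VEGF-C pools (log2 fold change -1.15 ± 0.27, adjusted p = 0.0344 by edgeR). Rprl2, an RNase P RNA-like gene, was called higher (log2 fold change 5.03 ± 0.85), but it had 141 counts in AAV-VEGF-C 3 and at most 8.03 in each other library. With each library left out in turn, the log2 fold change of Miat stayed between 1.83 and 2.32 (adjusted p from 0.0395 to 0.0773 by edgeR). That of 2900097C17Rik stayed between -1.34 and -1.09 (adjusted p from 0.0534 to 0.0850), and that of Rprl2 was 3.44 without AAV-VEGF-C 3 (adjusted p = 0.0748). Over all genes, those fits called 0 without AAV-CTRL 2 or 3, and 8 higher and 0 lower without AAV-VEGF-C 2. They called 1771 higher and 48 lower without AAV-CTRL 1, 1233 and 43 without AAV-VEGF-C 1, and 320 and 8 without AAV-VEGF-C 3. With factors from the 2000 most abundant genes, 9 genes of the lists were higher and 0 lower, and 2900097C17Rik stood at -0.61 (adjusted p = 0.192 by edgeR). On log2(TPM + 1), Miat stood at 0.31 (adjusted p = 0.631 by limma). With the experiment as a block, 6 genes were higher and 3 lower, adding Rny1, Rny3, Rprl3 and Snora73b to the higher and Hnrnpa1 and Nono to the lower.

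By list, the protein partners of the RNAs had medians below 0 with TMM scaling. The 9 genes of the 7SK complex and P-TEFb had a median log2 fold change of -0.46, with 2 above 0, and none passed. Larp7, which binds 7SK, had 19.2, 18.8 and 25.4 CPM in the control pools and 4.57, 12.3 and 10.5 CPM in AAV-VEGF-C (unadjusted p = 0.0215 and adjusted p = 0.110 by edgeR). The 12 paraspeckle proteins had a median of -0.42, with 1 above 0, and the 12 nuclear speckle proteins -0.58, also with 1 above 0. Nono, a core paraspeckle protein, had 114, 133 and 157 CPM against 30.5, 71.9 and 72.3 CPM (adjusted p = 0.0633 by edgeR, 0.0339 with the block). The 9 tested proteins of RNase P and MRP had a median of -0.26, and the 20 genes of RNA polymerase III and its factors -0.35. The median of all tested genes whose mean TPM reached 5 was -0.41. The median of mean TPM was 1.83 for RNase P and MRP and 4.05 for RNA polymerase III, so for these lists that comparison is at an unlike level. With factors from the 2000 most abundant genes, 4 of these 5 medians were above 0, at 0.04 for the 7SK complex, 0.09 for paraspeckle proteins, 0.21 for RNase P and MRP and 0.15 for RNA polymerase III. That of the speckle proteins remained below 0, at -0.08. The median of RNase P and MRP was also above 0 without any of the AAV-CTRL libraries in turn, at 0.09, 0.035 and 0.69. The 22 tested other small structural RNAs had a median of 0.82, with 18 above 0. It was 0.43 without AAV-CTRL 3, and on log2(TPM + 1) it was -1.01, with 2 above 0, where the median of all genes was -0.72. The 23 tested other nuclear or regulatory long noncoding RNAs had a median of -0.00, with 11 above 0. It was 0.54 with factors from the 2000 most abundant genes and -0.96 on log2(TPM + 1). The 6 ribosomal RNA related rows other than CT010467.1 had a median of 1.38, or 0.65 without AAV-CTRL 3, with 4 above 0 in both. The pair below 0 were the mitochondrial rRNAs, mt-Rnr1 at -1.18 and mt-Rnr2 at -1.10, and 0 of the 6 passed.

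Shares of a library sum to a whole, so the other gene types were set beside CT010467.1. Protein-coding genes took 67.9%, 67.5% and 79.4% of counts in the control pools and 48.7%, 58.7% and 59.0% in the AAV-VEGF-C pools (exact permutation p = 0.1, two-sided, adjusted p = 0.177). The 2 mitochondrial rRNAs took 2.22%, 3.08% and 6.20% in the control pools and 0.671%, 2.15% and 1.87% in the AAV-VEGF-C pools (exact permutation p = 0.1, adjusted p = 0.177). Within AAV-CTRL they were highest in AAV-CTRL 3, where CT010467.1 was lowest. Over 23 gene types, 11 were higher and 2 lower in AAV-VEGF-C without overlap, and none could pass, as 3 libraries against 3 allow no exact p under 0.1. With CT010467.1 taken out of the library totals, 13 types were higher and 1 lower without overlap. Protein-coding genes were the type that stayed lower, at 77.4% to 81.0% against 63.4% to 71.7%. The mitochondrial rRNAs then overlapped, at 2.53% to 6.32% against 0.872% to 2.63% (exact permutation p = 0.2). The misc_RNA type, which holds Rn7sk, took 5.08% to 6.41% in AAV-CTRL and 2.91% to 5.90% after AAV-VEGF-C. The ribozyme type, which is mostly Rpph1, took 0.370% ± 0.0458 and 0.359% ± 0.118.

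For the other genes of the group, the rows with the most similar pattern over the 6 libraries were protein-coding genes in most cases. These correlations rest on 6 points that share depth and experiment, and for Malat1 466 of 9897 genes reached r of 0.95. Malat1 was close to Agrn (r = 0.9973) and Eif2s3x. Neat1 was closest to Acox3 (r = 0.9936), Got1 and Kdm6b, and 78 genes reached r of 0.95. Rn7sk was closest to Ddx54 (r = 0.9993), Insr and Rpl39, and 273 genes reached r of 0.95. Rpph1 was closest to Evl (r = 0.9973), Ier5 and Zbtb2, and 181 genes reached r of 0.95. Rmrp was closest to Snx32 (r = 0.9876), Ddx39 and Rn7s6, a row of the misc_RNA type, and 8 genes reached r of 0.95 with it.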

How the data were processed

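RNA was measured in 6 libraries of sorted dural LECs, made per the labels from total RNA with a stranded low-input kit. For each gene the authors deposited an estimated count, with no scaling across libraries, together with a TPM value. The submitters' processing notes name FastQC, Trimmomatic, DRAGEN and Picard and the build mm10, and the use of strand in counting is not given in the sources used here. Of the 55401 identifiers, 98.1% equal those of GENCODE M21 with version and 99.53% without. Where a symbol had 2 rows (Rmrp), the row with the most counts was used. The groups came from the labels. The members, lists and tests were chosen with earlier results of these data known.

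Estimated counts were rounded, filtered by filterByExpr, scaled by TMM and compared with the quasi-likelihood test of edgeR 4.0.16 (R 4.3.3) at an adjusted p of 0.05. The design was without a block. DESeq2 1.42.0, which the study used, and limma 3.58.1 on log2(TPM + 1) and log2(TPM + 0.1) were alternatives, with other scalings, filters, drawn-down counts, a replicate block and each library left out. For the lists, the other scalings, limma and drawn-down counts were added after seeing the data. The fit was tested on simulated data for this comparison (16501 genes), where it recovered 0% of 53 genes changed 2-fold, 17.9% of 67 changed 4-fold and 65.6% of 64 changed 8-fold. Every simulated gene was given the same common dispersion, so these rates do not carry over to genes that vary more or less. Shares have 95% Wilson intervals. Shares of 23 gene types were compared with an exact permutation test (two-sided), adjusted over the types. Sequences were compared with blastn 2.17.0. Named genes were the 7 members, list genes that passed the test or otherwise were among the most abundant of their list, and the 3 most correlated genes of each member (log2 CPM with a prior of 2, among genes of at least 10 CPM). One gene that this rule names is not reported here. Larp7, Nono, Gm37376, Ccdc107 and the block's added genes were named after their values were seen. Depth, from 564475 to 12399498 counts, limits Neat1 most. Replicate numbers were taken to pair the libraries, since the labels tie them to experiments and deviations of same-numbered libraries correlated at 0.418, 0.189 and 0.211. Of the 6 pairs with unlike numbers, AAV-CTRL 3 with AAV-VEGF-C 2 correlated at 0.224 and the others were below 0. Libraries of a group differed by more than sampling noise, the smallest chi-square over its degrees of freedom being 7.70.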

Additional observations from a re-analysis of the deposited data

How the results depend on the processing

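Of 119 fold changes of the 7 genes under other settings, 104 kept their direction and their side of the threshold, and 15 had the opposite sign. Opposite signs concerned Neat1, Rpph1 and Rmrp, none of which was called in any fit. With limma on log2(TPM + 1) the log2 fold changes were -1.18 for Neat1, -1.47 for Rpph1 and -1.37 for Rmrp, and with a pseudocount of 0.1 they were -1.24, -1.47 and -1.37. Without a filter Rpph1 was at -0.16 and Rmrp at -0.057, and with library size alone Rpph1 was at -0.023. With each library left out, Neat1 ranged from -0.56 to 0.81, Rpph1 from -0.21 to 0.17 and Rmrp from -0.10 to 0.25. The summed share of the 7 was 9.97 percentage points higher in AAV-VEGF-C, 15.5 over protein-coding counts, -2.14 in TPM and 6.495 to 12.0 with a library left out, lowest without AAV-CTRL 3. In the lists, 5 genes were higher and 5 lower with DESeq2, 5 and 10 without a filter, and 0 and 0 where a mean TPM of 5 was required. In alternatives chosen after seeing the data they were 9 and 0 with factors from the 2000 most abundant genes, 2 and 0 with library size alone, and 0 and 0 with limma at either pseudocount or with counts drawn down. Leaving out each library gave 0 to 2 higher and 0 lower. The replicate block gave 6 higher and 3 lower and left 0 of the 7 called. Calls over all genes (1835 higher and 115 lower) were 2241 and 362 with the block, 5534 and 471 with DESeq2, 9382 and 1175 without a filter, 2537 and 8 with factors from the 2000 most abundant genes, 2054 and 53 with library size alone, 9 and 0 where a mean TPM of 5 was required, 11 and 0 with counts drawn down to the smallest total, 1 and 1 with limma on log2(TPM + 1) and 628 and 15 with a pseudocount of 0.1. With a library left out they ranged from 0 to 1771 and from 0 to 48, and they were 0 and 0 without AAV-CTRL 2 or 3. The median log2 fold change of all genes was -0.00 with TMM, -0.10 with library size alone, 0.49 with the 2000 genes, 1.88 without a filter, 2.29 with DESeq2, -0.72 and -1.04 with limma at pseudocounts of 1 and 0.1. At 30 bases and 90% identity, 1 pair (Malat1 and Neat1) shared a stretch, as against 0. The cause of these changes was not tested. Depth limits Neat1 most, with 175 counts in AAV-VEGF-C 1.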
